A study of Drosophila melanogaster with 3 samples.

Results

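The regions described here are peaks of the zinc finger protein pad with summits at noncoding RNA starts and not at protein-coding starts. Of 30000 peaks and background regions called on the pooled replicates, 414 had their summit within 250 bp of a noncoding RNA start and more than 250 bp from every protein-coding start. A coding start still lay within 1000 bp of 129 of these summits. Of these 414 peaks, 119 also stood in the list that passed the irreproducible discovery rate (IDR), a rank comparison between replicates. That is 28.7% (exact binomial 95% interval 24.4 to 33.4%), against 22.2% of all pooled peaks. Since IDR kept exactly the strongest pooled peaks, this share describes signal strength. All rows of the pooled list are called peaks here, although it also holds background regions, so a row that did not pass may be background.

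The data came from ChIP-seq on whole adult Drosophila melanogaster females of unknown age, in 3 biological replicates of 1 group. All 3 came from a single transgenic line with stable expression of pad tagged with GFP at its C terminus, and an anti-GFP antibody was used for the immunoprecipitation. The labels do not give the promoter of the transgene. No sample of another genotype, sex or treatment was compared, and whole animals mix all tissues, so a weak peak in many cells and a strong one in few cannot be told apart. Read depth is unknown, since the lists hold no read counts. The signal of a peak is the authors' own measure, whose scaling is not stated, and only ranks were compared between replicates.

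The gene pad (poils au dos) is known for limiting sensory bristles through repression of achaete and scute. Long noncoding RNAs (lncRNAs) and antisense RNAs (asRNAs) are transcribed, capped and spliced much like messenger RNAs but are not known to be translated. Some are the primary transcripts from which microRNAs are cut, some carry small nucleolar RNAs (snoRNAs) in their introns, and some act on chromatin or on nuclear bodies. Most in the fly annotation carry only a number and no known role.

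The sequences that bear on the strongest peaks are shown with 50 bases to each side of the summit, on dm6 and read in the direction of the noncoding RNA. These are 6 of the 7 strongest peaks, with capitals for any of the 15 motifs that were searched. In this set the capitals mark the word AGGGGAAA, the word GAGCGAGA or the GAGA site GAGAGAG, read on either strand.
lncRNA:CR45215, chr3R:8316818-8316918, plus strand: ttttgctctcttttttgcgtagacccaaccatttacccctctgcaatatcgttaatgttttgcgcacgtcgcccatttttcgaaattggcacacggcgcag
asRNA:CR44429, chrX:15298233-15298333, minus strand: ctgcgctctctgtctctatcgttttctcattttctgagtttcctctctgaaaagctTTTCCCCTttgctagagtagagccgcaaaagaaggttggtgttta
lncRNA:CR43431, chr3L:12653281-12653381, minus strand: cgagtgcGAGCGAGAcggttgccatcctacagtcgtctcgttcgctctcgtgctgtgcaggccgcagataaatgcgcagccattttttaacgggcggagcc
lncRNA:CR45352, chr2L:14021907-14022007, minus strand: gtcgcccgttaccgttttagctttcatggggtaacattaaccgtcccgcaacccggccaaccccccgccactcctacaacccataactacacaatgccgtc
lncRNA:CR46454, chr2L:11447875-11447975, plus strand: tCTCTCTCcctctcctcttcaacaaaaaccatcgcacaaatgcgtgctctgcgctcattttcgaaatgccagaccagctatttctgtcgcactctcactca
lncRNA:CR44539, chr3L:10246490-10246590, plus strand: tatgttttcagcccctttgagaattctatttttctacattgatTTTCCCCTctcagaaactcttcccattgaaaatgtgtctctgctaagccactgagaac

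The next windows lie at noncoding RNAs with a known role whose peak passed IDR. Capitals mark matching letters only, searched without regard to the distance from the start. In the window at the lncRNA:Hsromega start they mark TATAAA of the TATA box and TCAGTC of the Initiator. They mark TATAAA at Uhg8, whose start lies outside the window, and the E-box CACGTG at lncRNA:iab4. A start site of lncRNA:Hsromega is base 75 of its second window, and one of lncRNA:iab4 is base 2.
lncRNA:Hsromega, chr3R:21296348-21296448, plus strand: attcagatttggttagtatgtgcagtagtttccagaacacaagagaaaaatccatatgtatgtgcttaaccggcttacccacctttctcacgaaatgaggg
lncRNA:Hsromega, chr3R:21296547-21296647, plus strand: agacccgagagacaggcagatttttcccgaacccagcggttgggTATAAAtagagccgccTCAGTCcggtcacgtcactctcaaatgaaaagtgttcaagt
Uhg8, chr3L:20453121-20453221, plus strand: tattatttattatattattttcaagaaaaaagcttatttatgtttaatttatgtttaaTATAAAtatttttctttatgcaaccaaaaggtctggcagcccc
lncRNA:flam, chrX:21631605-21631705, plus strand: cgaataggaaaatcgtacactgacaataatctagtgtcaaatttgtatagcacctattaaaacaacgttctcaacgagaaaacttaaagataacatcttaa
lncRNA:iab4, chr3R:16850003-16850103, plus strand: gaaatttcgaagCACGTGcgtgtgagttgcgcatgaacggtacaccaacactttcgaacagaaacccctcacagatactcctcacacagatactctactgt

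Last are windows at 3 transcripts from which microRNAs are cut, chosen after their values were seen. They carry mir-279 and mir-996 (lncRNA:CR31044), mir-bft (lncRNA:CR43314) and bantam (lncRNA:CR43334). Capitals in lncRNA:CR43314 mark GAGCGAGA and the E-box CAGCTG.
lncRNA:CR31044, chr3R:29214399-29214499, plus strand: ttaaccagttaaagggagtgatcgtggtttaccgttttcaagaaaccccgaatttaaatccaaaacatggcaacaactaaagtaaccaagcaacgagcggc
lncRNA:CR43314, chr2L:11971121-11971221, minus strand: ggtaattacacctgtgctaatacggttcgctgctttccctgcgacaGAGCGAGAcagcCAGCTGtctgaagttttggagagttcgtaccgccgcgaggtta
lncRNA:CR43334, chr3L:628368-628468, plus strand: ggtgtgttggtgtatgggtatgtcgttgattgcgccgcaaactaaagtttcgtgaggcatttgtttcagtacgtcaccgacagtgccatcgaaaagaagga

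The 20 strongest of the 414 peaks were found near the top of every replicate list. They were picked by signal on the pool of the same replicates, so their replicate ranks are not independent of the choice. Their pooled ranks ran from 46 to 941 of 30000, and no replicate placed any of them below rank 1290. They lay in 20 separate merged regions, 6 on 2R, 5 on 3R, 4 on 2L, 3 on 3L and 2 on X. The transcripts were 15 lncRNAs, 4 asRNAs and the snoRNA host Uhg4, and 13 of the 20 summits were upstream of the start.

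The strongest peak, at chr3R:8316321-8317333, had its summit 116 bp upstream of lncRNA:CR45215 (FBgn0266742) and 325 bp from the start of Coq2, a gene of coenzyme Q synthesis. Its signal was 12548, and it ranked 39, 59 and 38 in replicates 1, 2 and 3, a mean of 45.3 ± 11.8 (SD, n = 3). The peak at asRNA:CR44429 (FBgn0265611), at chrX:15297813-15299112, lay in an intron of gce, which encodes a juvenile hormone receptor. Its summit was 517 bp from the gce start, and the peak had a signal of 7115 and ranked 88, 112 and 95. The peak at asRNA:CR45134, in an intron of whd, the gene of a carnitine palmitoyltransferase, reached 6388 in signal, and its replicate ranks averaged 150 ± 51.1 (SD, n = 3). Its summit was 603 bp from the whd start. No replicate placed any of these 3 peaks below rank 203.

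The summit at lncRNA:CR43431 was 241 bp upstream of its start, and the nearest coding start, 40308 bp away, was that of the homeobox gene mirr. That peak had a signal of 5879 and ranked 93, 175 and 128. At lncRNA:CR46454 the nearest coding start was that of salm, a zinc finger gene, at 2311 bp, and the ranks were 113, 294 and 160. At lncRNA:CR44339 it was that of Psc, a Polycomb group gene, at 4184 bp, and the ranks were 546, 994 and 1077. The peak at lncRNA:CR46036, in an intron of osa, a subunit gene of the Brahma remodelling complex, ranked 395, 640 and 692.

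Of the 20 summits, 7 had a coding start within 1000 bp, those at lncRNA:CR45215, asRNA:CR44429 and asRNA:CR45134 among them. The summit at asRNA:CR45132, in an intron of the kinase gene Pkn, was 390 bp from the Pkn start and ranked 551 in the pooled list. Its replicate ranks of 161, 76 and 119 are those of the strongest peak that overlapped a region of 1475 bp with more than 1 summit. The summit at lncRNA:CR45805 was 374 bp from the start of Pdk1, a kinase gene of insulin signalling, with ranks of 1290, 627 and 758. The remaining 9 lncRNAs of the 20, had signals from 1420 to 5569. Of these, lncRNA:CR45352 ranked 172, 136 and 197, and its summit was 1749 bp from the start of NimC3. The summit at lncRNA:CR44539, with ranks of 184, 265 and 171, was 1834 bp from the start of the odorant receptor gene Or67c.

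**Figure D1:**
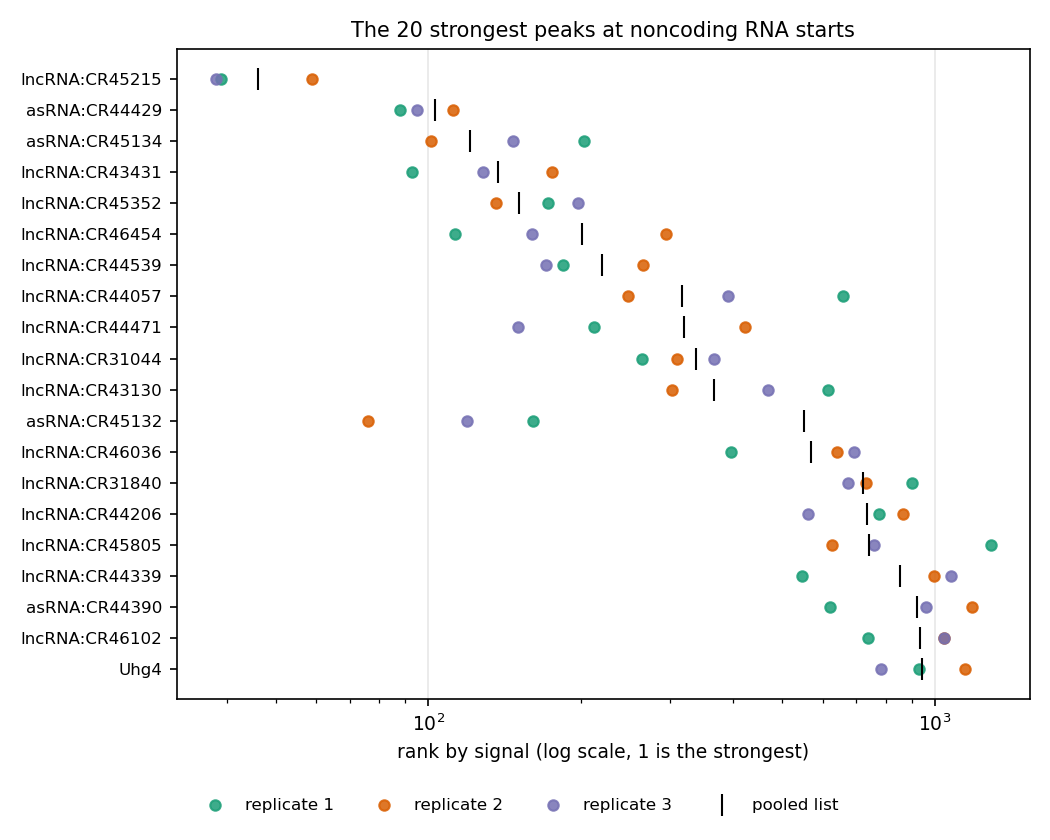
Rank by signal (x axis, log scale) of the 20 strongest peaks at noncoding RNA starts, 1 row per peak. Points are the strongest overlapping peak in replicates 1 to 3 and the bar is the pooled list; every point lies at rank 1290 or better.

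Among noncoding RNAs with a known role, peaks that passed IDR stood at the starts of lncRNA:Hsromega, lncRNA:flam, lncRNA:iab4, Uhg4, Uhg5 and Uhg8. Of the 32 symbols listed, 6 had such a peak and 7 had peaks in the pooled list that did not pass. A further 12 had no pooled summit within 250 bp. The symbols msa, bft, pgc, IBIN, nvd and Uhg6 had no noncoding transcript in the annotation used, so these 6 were not assessed. The carrier of mir-bft is annotated under another symbol, lncRNA:CR43314. Uhg2 had a summit that passed, 82 bp from its start, but a coding start also lay within 250 bp of it, so it is not among the 414. The summits at Uhg4, Uhg5 and Uhg8 also had coding starts close by, at 556, 318 and 307 bp.

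The heat-inducible lncRNA:Hsromega, which organises nuclear omega speckles, had 2 summits in the same peak at chr3R:21295967-21296771. The upstream summit, 223 bp before a start, had a signal of 1277 and a pooled rank of 1071, and the other, 24 bp before a start, a signal of 758. Both summits lay in an annotated noncoding exon, downstream of an earlier start of this RNA at chr3R:21296127. Replicates ranked the overlapping peak 1317, 1029 and 1087, a mean of 1144 ± 152 (SD, n = 3). The snoRNA hosts Uhg4, Uhg5 and Uhg8 ranked 953 ± 184, 4933 ± 982 and 3513 ± 1717 (SD, n = 3). By replicate, Uhg4 ranked 931, 1147 and 782, and Uhg8 ranked 2707, 5485 and 2347, so Uhg8 was lowest in replicate 2.

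The piRNA cluster transcript lncRNA:flam, known for silencing retrotransposons in ovarian follicle cells, had a summit 236 bp upstream of its start with a signal of 344. It ranked 8929, 4242 and 6350 in the replicates, a mean of 6507 ± 2347 (SD, n = 3), and a weaker summit 35 bp upstream had a signal of 145 and did not pass IDR. The bithorax complex transcript lncRNA:iab4, from which mir-iab-4 is cut, had a summit 49 bp into the transcript with a signal of 271. Its ranks of 7734, 9734 and 3999 made it one of the weaker peaks that passed. Its opposite-strand neighbour lncRNA:iab8 has 8 annotated starts, the first at chr3R:16923231. A summit 107 bp upstream of a later start, at chr3R:16848714, had a signal of 134. It ranked 11094, 14255 and 17413, did not pass, and was the only pooled summit within 250 bp of any start of lncRNA:iab8. The nearest IDR summit lay 772 bp from a start, with a signal of 331.

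The roX RNAs, which guide the dosage compensation complex to the X chromosome of males, had summits in the pooled list that did not pass IDR. The deposited −log10 q-value was 2.18 at lncRNA:roX1 and 0.811 at lncRNA:roX2. The summit at lncRNA:roX1 had a signal of 137, against a median of 129 over the 414 peaks. It was matched at rank 9625 in replicate 1 and 11374 in replicate 3, with no match in replicate 2. The summit at lncRNA:roX2 had a signal of 78.5 and was matched in replicate 2 alone, at rank 13942. The dorsal closure regulator lncRNA:acal, Uhg1, Uhg3 and the ribosomal RNA processing gene RNaseMRP:RNA were also in the pooled list only. Their signals were 165, 178, 80.5 and 78.2, with −log10 q-values of 2.83, 3.06, 0.852 and 0.804. An IDR summit with a signal of 297 lay 322 bp from the RNaseMRP:RNA start.

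Other known noncoding RNAs had no summit at the start. The nearest pooled summit lay 837 bp from lncRNA:yar, which is transcribed in the yellow-achaete region, and the nearest IDR summit 56091 bp away. For lncRNA:bxd of the bithorax complex the nearest pooled summit lay 2356 bp away. At lncRNA:let7C, the precursor of let-7, and lncRNA:cherub, a neuroblast RNA, summits that passed IDR lay 542 and 1374 bp from the start, with signals of 939 and 1829. The other 8 without a summit were lncRNA:sphinx, lncRNA:CRG, lncRNA:Vinr, lncRNA:dntRL, both 7SLRNA genes of the signal recognition particle, RNaseP:RNA and Uhg7.

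**Figure D2:**
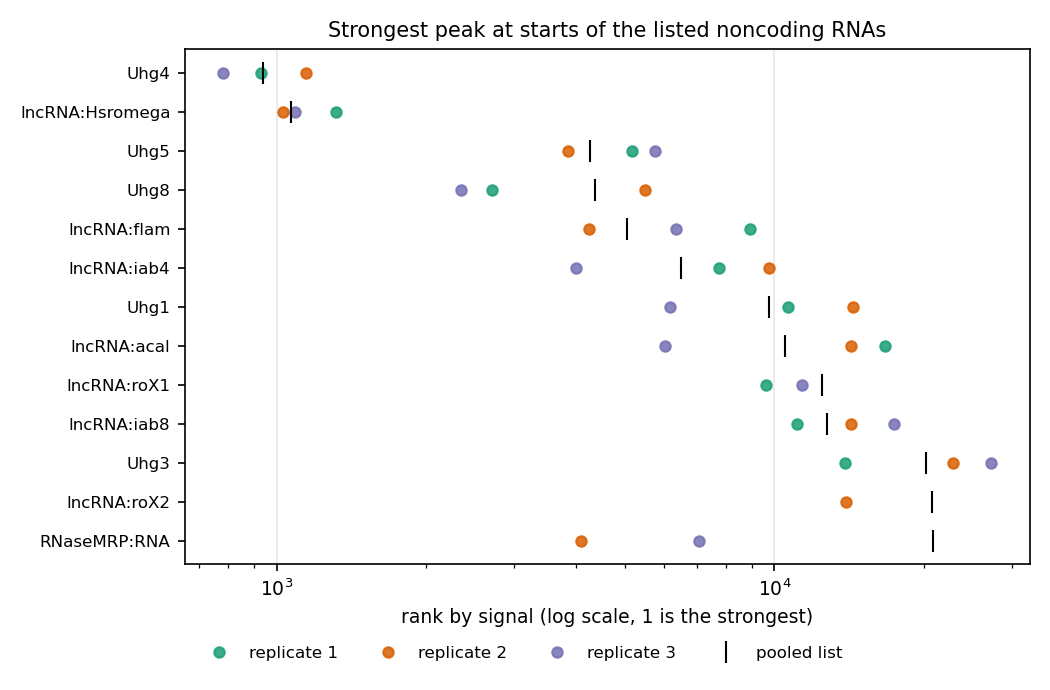
Rank by signal (x axis, log scale) of the strongest pooled peak at the start of each listed noncoding RNA among the 414 peaks, by replicate (points) and in the pooled list (bar). A missing point means no overlapping peak in that replicate, as for lncRNA:roX2 in replicates 1 and 3.

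Primary transcripts of microRNAs had a summit at the start in a larger share than other noncoding RNA genes. Counting any start, 24 of 37 annotated noncoding RNA genes that carry a microRNA on the same strand had a pooled summit within 250 bp (64.9%, exact binomial 95% interval 47.5 to 79.8%). Of genes that carry neither a microRNA nor a snoRNA, 455 of 2473 had one (18.4%). An IDR summit lay at 15 of the 37 (40.5%, 24.8 to 57.9%), against 142 of the 2473 (5.74%, 4.86 to 6.73%). Some of these summits also lie at coding starts, and this grouping was chosen after the values were seen, so the shares are a description and were not tested. Carriers of microRNAs had more annotated starts, a mean of 1.65 against 1.06. Among genes with 1 start the shares with a pooled summit were 11 of 23 (47.8%) and 412 of 2359 (17.5%). Of 10 genes that carry snoRNAs, 8 had a pooled summit and 4 an IDR summit.

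Among the 414 peaks, 32 lay at 21 microRNA precursors, and 13 of these, lncRNA:Hsromega and lncRNA:iab4 among them, had a peak that passed IDR. The strongest was lncRNA:CR31044, which carries mir-279 and mir-996, with a summit 113 bp upstream of its start, a signal of 3070 and ranks of 264, 310 and 366. The precursor of mir-184, lncRNA:CR44206, had 2 peaks that passed, at separate starts, with signals of 1718 and 1354. The precursor of bantam, a growth-promoting microRNA, is lncRNA:CR43334. It had 4 summits at 2 sites, of which the strongest lay 17 bp upstream of a start with a signal of 810 and ranks of 2326, 2053 and 1392. The mir-8 precursor lncRNA:CR43650 also had 4 summits, 3 of which passed, the strongest with a signal of 785 and ranks of 1644, 2498 and 1802. Nearby summits can match the same replicate peak, so these are not separate observations.

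Further precursors with a peak that passed were those of mir-bft, mir-14, mir-276a, mir-31b, mir-276b, mir-1000 and the nervous system microRNA mir-124, with signals from 288 to 906. The summit at lncRNA:CR43651, the mir-14 precursor, lay on the start site itself and ranked 5527, 2076 and 1690. Precursors with pooled peaks that did not pass included those of mir-9a, mir-277 and mir-34, the muscle microRNA mir-1 and mir-10, all with signals of 168 or less. At the processed 5′ ends of microRNAs, which are not transcription starts, 36 pooled summits lay over 250 bp from coding starts, 15 passed IDR and 3 were among the 414.

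By median signal the 414 peaks lay between peaks at coding starts and peaks away from starts, but not at the top of the list. Their median signal was 129, against 188 for 8396 peaks at coding starts and 94.5 for 20993 peaks over 250 bp from any start. The share in the IDR list was 28.7% against 36.9% and 16.2%. Among the 1000 strongest pooled peaks were 21 of the 414 (5.07%), against 4.98% of peaks at coding starts and 2.63% of those away from starts. In the replicates' 5000 strongest peaks, 28.3, 32.9 and 29.5% of the 414 had a match, a mean of 30.2% ± 2.38 (SD, n = 3). Peaks at coding starts averaged 34.4% ± 0.827 and those away from starts 15.6% ± 0.227 (SD, n = 3). The difference from coding starts averaged -4.17 ± 3.20 percentage points (SD, n = 3) and was -6.84, -0.62 and -5.05 by replicate, lower in 3 of 3. The difference from peaks away from starts averaged 14.6 ± 2.30 points (SD, n = 3) and was 12.6, 17.1 and 14.1 by replicate, higher in 3 of 3. In an exact sign-flip permutation test over the 3 replicates, two-sided, each difference gave p = 0.25, the smallest that 3 replicates allow, so neither can reach 0.05.

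**Figure D3:**
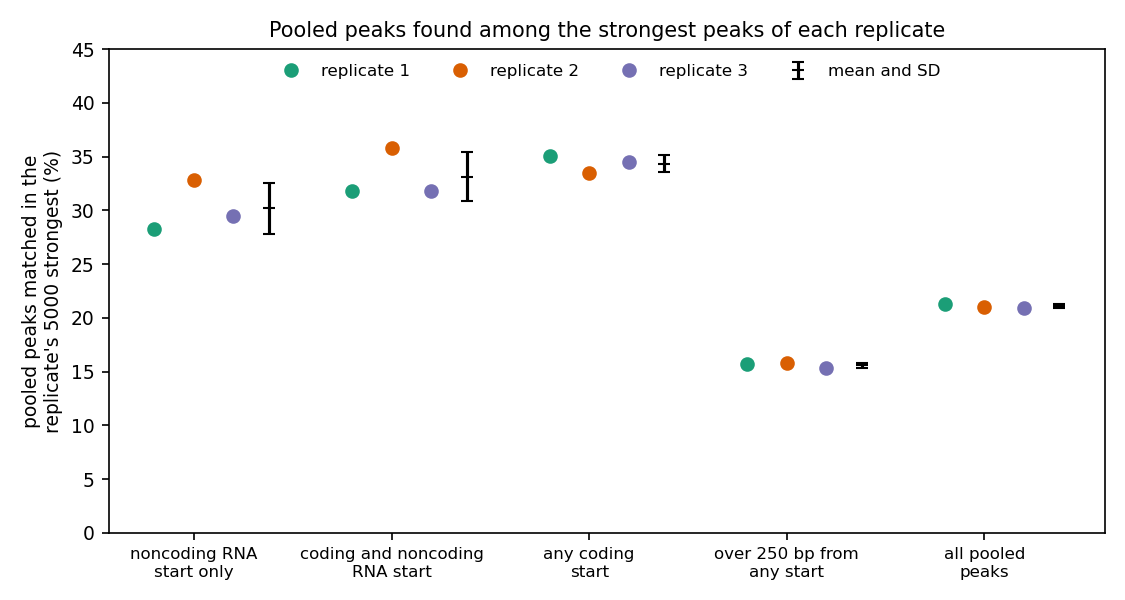
Share of pooled peaks (y axis, %) that overlap one of the 5000 strongest peaks of each replicate (points), with mean and SD of the 3 replicates, for 5 sets of peaks. The 414 peaks at noncoding RNA starts only lie between 28.3 and 32.9%, and peaks over 250 bp from any start average 15.6%.

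Peaks that passed IDR were also set side by side. The median signal was 545 for the 119 peaks at noncoding RNA starts, against 499 at coding starts and 494 away from starts. Of the 119, 110 had a match in the first 10000 peaks of all 3 replicates (92.4%), against 90.8% at coding starts and 90.8% away from starts. The median ratio of the worst to the best replicate rank was 1.64, against 1.73 and 1.77. These differences were not tested. Among peaks matched in the first 10000 of all 3 replicates, the SD of the rank was largest at asRNA:CR45281, with ranks of 8996, 1045 and 1329, at lncRNA:CR45354, with 9433, 3304 and 8146, and at lncRNA:CR44720, with 9668, 4914 and 4062. Replicate 1 gave the weakest rank at all 3 of them.

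Of the 295 peaks that did not pass, the strongest lay at lncRNA:CR43334 and lncRNA:CR45166, with signals of 261 and 254. The weakest that passed lay at lncRNA:CR32385 and lncRNA:CR44276, with signals of 266 and 270. Over all 414 peaks, 147 had a match in the first 10000 of all 3 replicates (35.5%), 38 in 2, 66 in 1 and 163 in none. Only 5 had no overlapping peak of any rank in any replicate.

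Summits lay more often before the start of the noncoding RNA than after it. Of the 413 summits off the start itself, 242 were upstream (58.6%) and 171 downstream, with a median position of -38.5 bp. Among peaks that passed IDR, 77 of 118 were upstream (65.3%), with a median of -80 bp. At coding starts the same shares were 64.9% of 8365 summits and 76.8% of 3089 that passed. Peaks are not replicates, and these shares were not tested.

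**Figure D4:**
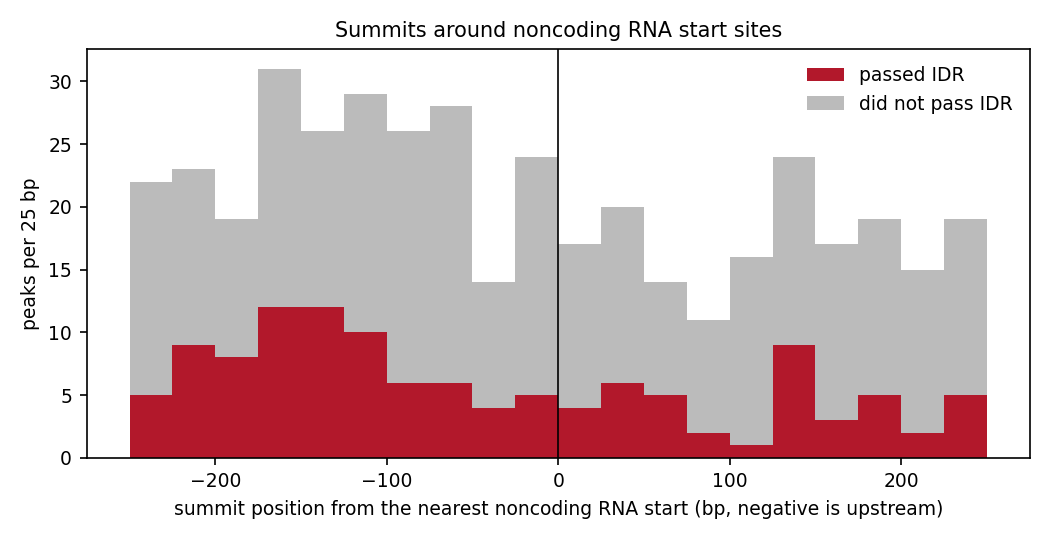
Number of summits (y axis, per 25 bp) by position from the nearest noncoding RNA start (x axis, bp, negative is upstream), for peaks that passed IDR and those that did not. Of the 119 that passed, 77 lie left of the start, 41 right of it and 1 on it.

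The 414 peaks lay in 359 merged regions and were nearest to 353 genes, of which 298 had 1 peak, 51 had 2, 2 had 3 and 2 had 4. By class, 292 were at lncRNAs, 108 at asRNAs and 14 at others, of which 88 (30.1%), 26 (24.1%) and 5 passed IDR. By position of the summit, 159 were in an exon of a noncoding RNA, 70 in an intron of a coding gene, 25 in coding exons and 14 each in 5′ and 3′ UTRs. The other 132 lay outside exons and outside coding genes, some of them in introns of noncoding RNAs. Coding exons had the smallest share that passed, 2 of 25 (8.0%, exact 95% interval 0.984 to 26.0%). Summits outside exons and coding genes had 45 of 132 (34.1%, 26.1 to 42.8%), and 5′ and 3′ UTRs had 5 and 2 of 14. Over all pooled peaks 22.2% passed, which the interval of coding exons holds, and these shares were not tested. Peak widths ran from 122 to 2361 bp, with a median of 490 bp.

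The distance to the nearest coding start ran from 252 to 59090 bp, with a median of 1940 bp. With a coding start over 250 and up to 500 bp away, 24 of 70 passed IDR (34.3%, exact 95% interval 23.3 to 46.6%). Over 500 and up to 1000 bp away 16 of 59 passed (27.1%, 16.4 to 40.3%). Over 1000 and up to 5000 bp away 49 of 179 passed (27.4%), and beyond 5000 bp 30 of 106 (28.3%). Of 129 peaks with a coding start within 1000 bp, the RNA and the gene pointed apart at 64, towards each other at 49 and along the same strand at 16. At the edges of the rule, 21 of 78 peaks at over 200 and up to 250 bp from the noncoding start passed, and so did 23 of 62 peaks just outside, up to 300 bp, which are not among the 414. Where the coding start was over 250 and up to 300 bp away, 5 of 18 passed. Where it was over 200 and up to 250 bp away, which is just outside the rule, 13 of 29 passed. The exact 95% intervals inside and outside overlapped at both edges, and these shares were not tested.

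Seen from the genes, a pooled summit lay at the start of 350 of 2214 noncoding RNA genes with no coding start within 250 bp (15.8%, exact binomial 95% interval 14.3 to 17.4%). An IDR summit lay at 106 of them (4.79%, 3.94 to 5.76%). The shares were 44.8% and 18.0% of 306 noncoding RNA genes with a coding start that near, and 50.7% and 24.4% of 13945 coding genes. Of the 2214, asRNA genes had a pooled summit in 92 of 402 cases (22.9%, 18.9 to 27.3%) and lncRNA genes in 247 of 1763 (14.0%, 12.4 to 15.7%). By arm the share was 24.3% on X (19.3 to 29.8%), 20.8% on 2R (16.6 to 25.5%), 15.0% on 3R, 67 of 516 on 3L and 11.9% on 2L (9.33 to 14.8%). On chromosome 4, 4 of 19 genes had one. Of the 414 peaks, 91 lay on 2R, 86 on 3R, 81 on 3L, 77 on X, 74 on 2L and 5 on chromosome 4, none of which passed IDR (0 of 5, exact 95% interval up to 52.2%, against 17.3% of all pooled peaks there).

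Motifs of housekeeping promoters, which were found at coding starts, were rare at these peaks and also at peaks away from starts. The DRE, TATCGATA, bound by DREF and BEAF-32, stood in 0 of 119 windows, 50 bp to each side of summits that passed IDR (exact 95% interval up to 3.05%), against 4.42% at coding starts and 0.294% away from starts. Motif 1 of the core promoter set was also in none, against 1.74% at coding starts and 0.0883% away from starts, shares that the same interval holds. Motif 7 was in 1 window (0.840%, interval 0.0213 to 4.59%), against 5.90% at coding starts and 1.24% away from starts. Over all 414 windows the DRE was found in 2 (0.483%), against 4.12% at coding starts and 1.33% of all pooled peaks. Motif 1 was in 1 of the 414 (0.242%, interval 0.00612 to 1.34%), against 2.02% at coding starts and 0.0333% away from starts. Motifs 5 and 6 were found in none of the 414 (interval up to 0.887%), against 1.49% and 0.738% at coding starts. They were in 0.286% and 0.081% of peaks away from starts and in 0.620% and 0.263% of all pooled peaks. That interval holds each of these shares except 1.49%. An absent match says only that these letters were not in the window.

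In the windows that passed, the GAGA site and the TATA box were found most often, in 11 each, followed by AGGGGAAA in 10. The GAGA factor site GAGAGAG stood in 11 of the 119 windows (9.24%, exact 95% interval 4.71 to 15.9%), against 4.03% at coding starts, 7.42% away from starts and 5.86% of all IDR peaks. The word AGGGGAAA stood in 10 (8.40%, 4.10 to 14.9%), against 1.35%, 4.18% and 2.94%, and GAGCGAGA in 7 (5.88%, 2.40 to 11.7%), against 2.29%, 4.80% and 3.62%. At least 1 of these 3 was in 23 windows. AGGGGAAA, GAGCGAGA and CAACACTG were picked out earlier on peaks of these data that include these, so their shares are not independent evidence. CAACACTG was in 3 windows (2.52%), against 5.25% at coding starts and 0.795% away from starts.

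For the other motifs the exact 95% interval of the 119 windows held the share of each set given here. The TATA box TATAAA was in 11 of the 119 windows (9.24%), against 14.4% at coding starts and 14.0% of all IDR peaks. The Initiator, searched as TCAGTT or TCAGTC, was in 7 (5.88%), against 8.93% and 8.33%. Over all 414 windows it was in 48 (11.6%), against 11.3% at coding starts and 9.68% of all pooled peaks, so the order turned. The E-box CAGCTG, whose letters also lie within Motif 5, was in 8 (6.72%), against 6.58% and 5.99%, and the E-box CACGTG in 1. The CTCF core, searched as AGGTGGCG, was in none, and the Su(Hw) core, searched as TGCATACTT or TGCATATTT, in 2. In 68 of the 119 windows none of the 15 motifs was found. Median GC content of the windows was 44.6%, against 41.6% at coding starts and 42.6% of all IDR peaks.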

How the data were processed

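Binding of pad-GFP was measured by ChIP-seq in 3 biological replicates, which form 1 group. Sonication gave a size range of 200 to 800, per the labels, without a unit. Per the deposited lists of derived files, the authors called 30000 peaks and background regions on each replicate and on the pool, each also drawing on 1 alignment outside the 3 replicates (the labels name a possible control), and 6659 pooled peaks passed IDR. Which aligner and peak caller made them is not given in the sources used here. The signal deposited by the authors has no stated scale and was used to rank peaks within a list. The −log10 q-value deposited by the authors was given for some listed noncoding RNAs and not otherwise used. The dm3 lists were not used.

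Summits (start plus summit offset) were compared with starts of transcripts of biotype ncRNA and protein_coding in Ensembl release 115, on the same Release 6 assembly as dm6, with 2520 ncRNA genes on the main chromosome arms. A peak was matched in a replicate when at least 50% of either peak was covered, and took the rank of the strongest match. Window sequences were read from the RefSeq Release 6 genome, and motifs searched on both strands, from 50 bp before to 50 bp after each summit. Known ncRNAs, motifs and the members were chosen with earlier results of these data known. Named peaks were the 20 strongest, listed ncRNAs, the 2 on each side of the IDR cut and the 3 whose replicate ranks differed most. Coding neighbours are named for some of the 20. Binomial 95% intervals (exact) cover counting error only, and sequencing depth is unknown. The labels do not say beyond the word biological that replicates were separate collections, so p-values measure the spread between these libraries. Procedures were tested on simulated data. Tables were handled with pandas 2.3.3 and numpy 2.4.6 under Python 3.11.15, tests run with scipy 1.17.1, and plots drawn with matplotlib 3.10.9.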

Additional observations from a re-analysis of the deposited data

How the results depend on the processing

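The number of peaks followed the rule: 155 with a noncoding start within 100 bp, 751 within 500 bp and 228 among the strongest 15000 pooled peaks, against 414. Noncoding RNA genes away from coding starts with a summit numbered 148, 587 and 190 in the same settings and 609 over every noncoding biotype, against 350. Among the strongest 15000 peaks the share in the IDR list was 52.2% and the share matched in every replicate 58.8%, since weaker peaks were left out. That second share, 35.5% as reported, was 30.5% with 1 summit per merged region and 28.5% when the summit had to lie inside the replicate peak. It was 61.8% when replicates were searched to any rank and 22.5% to rank 5000. Without 1 replicate it was 37.7 to 39.1%, which needs a match in fewer lists. At least 1 motif was found in 63.0% of windows with 100 bp to each side, against 36.0% with 50 bp.

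The mean difference from coding starts stayed below 0 in each alternative, with -5.94 to -2.83 points without 1 replicate. It was -0.60 (exact permutation test, p = 1) in the top 2000 of each replicate and -11.9 in the top 10000. With a noncoding start within 100 bp it was -2.32 ± 3.25 (SD, n = 3, exact permutation p = 0.5) and by gene biotype -3.55 ± 3.73 (SD, n = 3, exact permutation p = 0.5). In these 2 settings and in the top 2000 the replicates differed in sign. The difference from peaks away from starts stayed above 0, with 13.3 to 15.6 points without 1 replicate. Taking ncRNA by gene biotype, which adds microRNA ends and was chosen after seeing the data, gave 449 peaks and 29.4% in the IDR list. The samples form 1 group, so no replicate block between groups could be fitted, and differences between sets of peaks were taken within each replicate. Unknown depth limits what the weaker peaks can show.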
